A study of Homo sapiens with 9 samples.

Results

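The prostate kallikreins form the centromeric end of the kallikrein gene cluster on chromosome 19. RefSeq (GRCh38.p14) places KLK1, KLK15, KLK3, KLK2 and KLK4 next to one another, ahead of 10 further kallikrein genes. Every probe set whose platform annotation gives exactly 1 symbol, and that symbol is one of these 5 genes, was taken. The rule reads the annotation alone, although the genes were proposed with earlier results of these data known. All 5 genes, of 19775 with such a probe set, were found. They had 17 of the 54675 probe sets on the array: 3 for KLK3, 4 for KLK2, 5 for KLK4, 4 for KLK15 and 1 for KLK1. They were followed over 9 arrays of LNCaP cells, a line from human prostate cancer that responds to androgen.

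Each of the 9 groups had 1 array. In the inhibitor series, steady-state cells grew in medium with 10% fetal bovine serum. All other cells were washed and kept for 48 h in 5% charcoal-stripped serum, which depletes androgen. Deprived cells received vehicle, or 100 nM of the androgen dihydrotestosterone (DHT) for 16 h, or that DHT after a 2 h pretreatment with 100 µM etoposide or 100 µM merbarone. Both compounds inhibit topoisomerase II, the enzyme family to which TOP2B (topoisomerase II beta) belongs: etoposide holds the enzyme on cut DNA, while merbarone inhibits its catalysis without that trapped form. The cells of the shRNA series carried a GFP vector with sh-control or sh-TOP2B, were deprived, received vehicle or DHT at the same dose and time, and were sorted for GFP. The comparisons ask how DHT changed these transcripts and whether that change differed when topoisomerase II was inhibited or TOP2B was lowered.

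Kallikreins are secreted serine proteases made as inactive precursors. KLK3 is prostate-specific antigen, which cleaves the semenogelins and so liquefies the seminal clot. KLK2 is a trypsin-like relative that can activate the KLK3 precursor. KLK4 is a trypsin-like protease of prostate and of developing enamel. KLK15 can also activate the KLK3 precursor, and KLK1, tissue kallikrein, releases kinin peptides from kininogen. In luminal prostate cells KLK3 and KLK2 are classical androgen-induced genes, and the steroid hormone receptors that act at such genes bind DNA elements built on the letters AGAACA.

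Start-site sequences are shown for the genes with the strongest DHT response and for 1 window of KLK4. KLK4 was added because 1 of its 5 probe sets was higher with merbarone than with DHT alone. Whether the windows have a part in that was not tested. The windows are from RefSeq (GRCh38.p14), 300 bases each, from 250 bases before to 50 after an annotated start site, 5′ to 3′ on the gene's strand. KLK3 lies at chr19:50854665-50854964 (plus strand), KLK2 at chr19:50873189-50873488 (plus strand) and the KLK4 window at chr19:50911346-50911645 (minus strand). Capitals mark matches of the searched motifs given after the sequences, 2 of which overlap in KLK3.
KLK3: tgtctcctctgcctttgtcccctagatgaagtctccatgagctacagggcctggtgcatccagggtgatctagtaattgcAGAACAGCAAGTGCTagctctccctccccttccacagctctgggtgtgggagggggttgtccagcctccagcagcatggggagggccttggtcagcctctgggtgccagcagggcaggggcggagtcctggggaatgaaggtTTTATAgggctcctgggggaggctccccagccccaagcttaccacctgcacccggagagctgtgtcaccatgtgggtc
KLK2: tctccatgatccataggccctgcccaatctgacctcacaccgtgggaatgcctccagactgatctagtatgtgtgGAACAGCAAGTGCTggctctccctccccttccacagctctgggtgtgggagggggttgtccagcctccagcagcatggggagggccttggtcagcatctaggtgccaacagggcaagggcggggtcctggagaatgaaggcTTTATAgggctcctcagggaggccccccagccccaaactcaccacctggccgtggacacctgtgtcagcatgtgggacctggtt
KLK4: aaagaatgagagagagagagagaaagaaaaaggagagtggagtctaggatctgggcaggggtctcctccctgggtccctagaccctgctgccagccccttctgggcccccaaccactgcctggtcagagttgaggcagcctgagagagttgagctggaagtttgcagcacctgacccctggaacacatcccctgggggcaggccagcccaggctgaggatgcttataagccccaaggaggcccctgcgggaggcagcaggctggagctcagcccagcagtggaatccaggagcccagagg
Motifs were searched on both strands of all 35116 RefSeq windows of this length. GAACA followed by any 3 bases and AGTGCT matched KLK3 at -169 and KLK2 at -175 from the start site, and 0.0427% of all windows held it. AGAACA matched KLK3 at -170, overlapping that match, and 14.8% of all windows held it. From that base, the site reads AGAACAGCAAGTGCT in KLK3 and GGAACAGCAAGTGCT in KLK2. Counted from 1 at its 5′ end, the KLK2 site differs from the KLK3 site by A1G alone. TTTATA, whose reverse complement is TATAAA, matched KLK3 at -28 and KLK2 at -34, and on the other strand a KLK15 window at -30, against 11.5% of all windows for either spelling. The palindromes AGAACA with TGTTCT after any 3 bases (0.00285% of windows) and GNACA with TGTNC after any 3 bases (0.390%) had no match in the member windows, and neither KLK4 window matched any of the motifs. The KLK3 and KLK2 windows were identical at 246 of 290 aligned bases (84.8%). KLK3 and the KLK4 windows were identical at 53.2% and 59.1%, and KLK3 and the KLK15 windows at 54.5% and 60.4%. A match describes letters in a window and not a bound site.

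The deposited values are on the log2 scale, so a difference of 1 is a doubling. Array medians lay between 5.61 and 5.72, and a lower level is called dim here. Where 1 side of a difference was dim, the fold is written as "at least", computed with that side set to the array median. TOP2B, the shRNA target, read 10.44 in steady state, 10.55 with vehicle and 10.57 with DHT, but 9.94 with etoposide and 10.03 with merbarone. Its differences from DHT alone, -0.63 with etoposide and -0.54 with merbarone, did not pass the test used below. TOP2B read 10.54 and 10.87 in sh-control cells (vehicle and DHT) and 10.09 and 10.01 in sh-TOP2B cells, lower in both pairs. The 3′ minus 5′ difference of the beta-actin control probe sets was 0.38 to 0.70 in the inhibitor series and 2.38 to 3.09 in the shRNA series. For the GAPDH control probe sets the same difference was 0.17 to 0.25 and 0.52 to 0.64, a smaller gap between the series. The series therefore differ in vector, sorting and these measures of RNA integrity together, which cannot be told apart. Of the luminal prostate markers, KRT18 read 12.05 to 13.14, KRT8 10.41 to 11.54, FOLH1 9.21 to 11.97 and HOXB13 9.56 to 11.27. The basal marker KRT14, the leukocyte marker PTPRC, the neuroendocrine marker CHGA and the stromal marker COL3A1 were dim on all 9 arrays, while COL1A1 (stromal) read 8.05 to 9.63 and VWF (endothelial) 6.07 to 7.95. SYP (neuroendocrine) read 5.35 to 6.53 and was dim on 2 arrays, PECAM1 (endothelial) 4.89 to 6.66 and dim on 4, and KRT5 (basal) was dim on 8. No marker of these other cell types passed the test in any comparison. In RNA from whole cultures, fewer cells of a kind and less RNA per cell cannot be told apart.

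**Figure D1:**
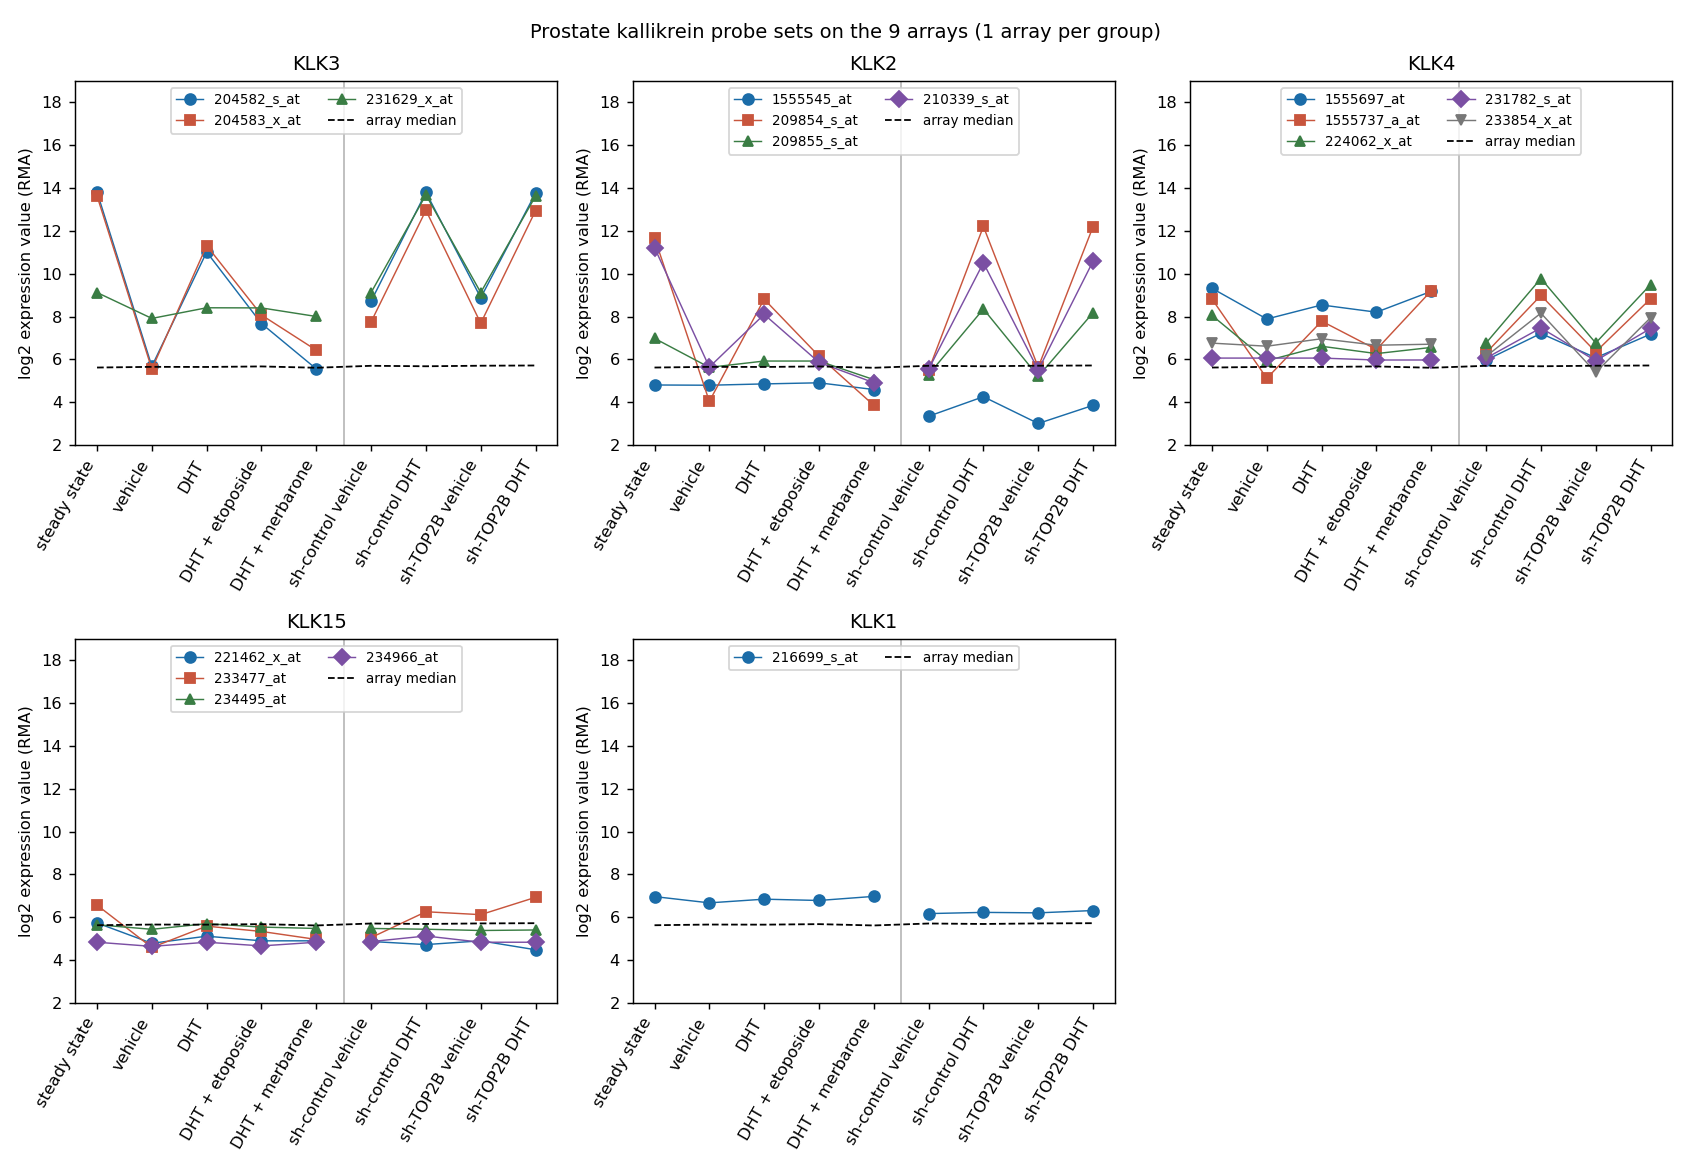
Log2 expression values (vertical axes) of each probe set of the 5 genes on the 9 arrays (horizontal axes), 1 point per array, with the inhibitor series left of the grey line, the shRNA series right of it, and the array medians dashed; lines only join points of 1 probe set. Probe sets 204582_s_at and 204583_x_at of KLK3 span over 8 units and fall with deprivation, while KLK1 stays between 6.17 and 6.97.

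By 2 of its 3 probe sets, KLK3, prostate-specific antigen, was highest in full serum and with DHT in sorted cells. By the same 2 it was lowest with vehicle or merbarone in the inhibitor series. Its leading probe set (the one of a gene with the highest mean over the arrays), 204582_s_at, read 13.82 in steady state and 5.68 after deprivation with vehicle. It read 11.02 with DHT, 7.68 with etoposide before DHT and 5.56 with merbarone before DHT. In sh-control cells it read 8.72 with vehicle and 13.80 with DHT, and in sh-TOP2B cells 8.88 and 13.76. Each DHT array therefore stood above each vehicle array, and the merbarone array was as low as the vehicle array of its series.

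The second KLK3 probe set, 204583_x_at, followed the same course. It read 13.64 in steady state, 5.55 with vehicle, 11.31 with DHT, 8.08 with etoposide and 6.43 with merbarone. In the shRNA series it read 7.76 and 12.96 with sh-control and 7.69 and 12.95 with sh-TOP2B. The third, 231629_x_at, did not. It read 9.13 in steady state, 7.92 with vehicle, 8.41 with DHT, 8.41 with etoposide and 8.01 with merbarone. In sorted cells it read 9.13 with vehicle and 13.68 with DHT (sh-control) and 9.13 and 13.63 (sh-TOP2B). Its DHT difference was thus 0.50 in the inhibitor series and 4.56 and 4.50 in the sorted cells.

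KLK2, the trypsin-like activator of KLK3, followed a similar course. Its leading probe set 209854_s_at read 11.68 in steady state, 4.04 with vehicle, 8.82 with DHT, 6.16 with etoposide and 3.86 with merbarone. In sorted cells it read 5.50 and 12.21 (sh-control, vehicle and DHT) and 5.64 and 12.20 (sh-TOP2B). All 3 vehicle levels and the merbarone level were dim, and no DHT level was. Probe set 210339_s_at read 11.22, 5.64, 8.11, 5.87 and 4.92 in the same order of inhibitor-series groups, and 5.54, 10.51, 5.51 and 10.59 in the sorted cells. Probe set 209855_s_at read 6.99 in steady state, 5.63 with vehicle, 5.93 with DHT, 5.93 with etoposide and 5.06 with merbarone, but 5.30 and 8.36 in sh-control and 5.21 and 8.19 in sh-TOP2B cells. The fourth, 1555545_at, was dim on all 9 arrays. KLK2 and KLK3 are close paralogs and some of their probe sets carry the suffix for shared or cross-hybridising probes, so signal from one may enter the other. Its part in these values was not tested.

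The KLK4 probe sets differed from one another in course. Its leading probe set 1555697_at read 9.32 in steady state, 7.89 with vehicle, 8.55 with DHT, 8.21 with etoposide and 9.18 with merbarone. In sorted cells it read 5.97 and 7.21 (sh-control) and 6.08 and 7.18 (sh-TOP2B), so every sorted-cell level lay below every inhibitor-series level. Probe set 1555737_a_at, whose suffix marks probes for alternative transcripts of 1 gene, read 8.82, 5.12, 7.79, 6.47 and 9.21 in the same order of groups. In sorted cells it read 6.31 and 8.99 (sh-control) and 6.36 and 8.83 (sh-TOP2B). With merbarone it was at the highest of its 9 levels. The other probe sets moved little in the inhibitor series outside steady state: 224062_x_at stayed between 5.94 and 6.62 there, 231782_s_at between 5.98 and 6.07, and 233854_x_at between 6.62 and 6.97. In sorted cells they read 6.77, 6.07 and 6.15 with vehicle and 9.78, 7.47 and 8.16 with DHT (sh-control).

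KLK15 was dim on most arrays, and KLK1 spanned 0.80 over all 9. Of the KLK15 probe sets, 233477_at read 6.56 in steady state, 4.59 with vehicle, 5.58 with DHT, 5.33 with etoposide and 4.96 with merbarone. It read 5.05 and 6.25 with sh-control and 6.12 and 6.93 with sh-TOP2B, and was dim on 5 of the 9 arrays. The other KLK15 probe sets, 221462_x_at, 234495_at and 234966_at, were dim on 8, 7 and 9 arrays. The single KLK1 probe set 216699_s_at was not dim on any array. It read 6.67 to 6.97 in the inhibitor series and 6.17 to 6.31 in the shRNA series, so the series did not overlap.

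DHT raised KLK3, KLK2 and KLK4. For KLK3 204582_s_at, DHT minus vehicle was 5.33 in the inhibitor series, 5.08 with sh-control and 4.88 with sh-TOP2B. The mean was 5.10 ± 0.10 (SE, n = 3 pairs), which is 34.2-fold (limma, adjusted p = 6.57e-05). In the same order, the differences of KLK3 204583_x_at were 5.76, 5.21 and 5.26, with a mean of 5.41 ± 0.13 (limma, adjusted p = 7.66e-05). For KLK2 209854_s_at they were 4.77, 6.71 and 6.56. The mean, 6.01 ± 0.36 (limma, adjusted p = 0.00603), was the largest of the 54613 probe sets tested, and since the vehicle levels were dim it is a rise of at least 41.8-fold. For KLK4 1555737_a_at they were 2.67, 2.68 and 2.48, with a mean of 2.61 ± 0.12 (limma, adjusted p = 0.00200), at least 5.39-fold. These 4 of the 17 member probe sets passed, all higher, against 0.0769% of all probe sets tested (42 of 54613, all higher).

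The spread in this test is how far the 3 differences disagree, so a probe set with unequal differences in the series has a wide error. KLK2 210339_s_at was higher in each pair (2.46, 4.97 and 5.08), with a mean of 4.17 ± 0.49 that did not pass (limma, adjusted p = 0.0753). KLK3 231629_x_at had a mean of 3.18 ± 0.75 (limma, adjusted p = 0.246). KLK4 224062_x_at, at 0.67, 3.01 and 2.72, had a mean of 2.14 ± 0.42 (limma, adjusted p = 0.203), and KLK4 1555697_at one of 1.00 ± 0.15 (limma, adjusted p = 0.132). KLK15 233477_at had differences of 0.99, 1.21 and 0.81, with a mean of 1.00 ± 0.17 (limma, adjusted p = 0.167), or at least 0.45 with its dim levels set to the median. KLK1 differed by 0.11 ± 0.14 (limma, adjusted p = 0.822).

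Counted by direction alone, 13 of 17 member probe sets were above vehicle in all 3 pairs, against 14.4% of all probe sets, and 0 were below in all 3, against 16.8%. These 13 were all 4 of KLK2, all 3 of KLK3, 4 of 5 of KLK4, 1 of 4 of KLK15 and the 1 of KLK1. Among them KLK2 1555545_at was dim on all 9 arrays, and KLK15 233477_at on 2 of 3 vehicle and 1 of 3 DHT arrays. The KLK1 differences were small, at 0.17, 0.06 and 0.11. In all 3 pairs 5 member probe sets were above by at least 1, against 0.103% of all probe sets: 2 of KLK3, 2 of KLK2 and 1 of KLK4. Both KLK3 calls held whichever pair was left out. KLK2 209854_s_at no longer passed without the sh-control pair (limma, adjusted p = 0.141) or the sh-TOP2B pair (limma, adjusted p = 0.220), and KLK4 1555737_a_at likewise (limma, adjusted p = 0.0758 and 0.102). Without the intensity trend of the limma fit, KLK2 209854_s_at did not pass either (limma, adjusted p = 0.158). Without the inhibitor-series pair 11 member probe sets passed, beside 5.31% of all probe sets (2900), and 2 did without the sh-control pair, as without the sh-TOP2B pair, beside 0.00549% (3).

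**Figure D2:**
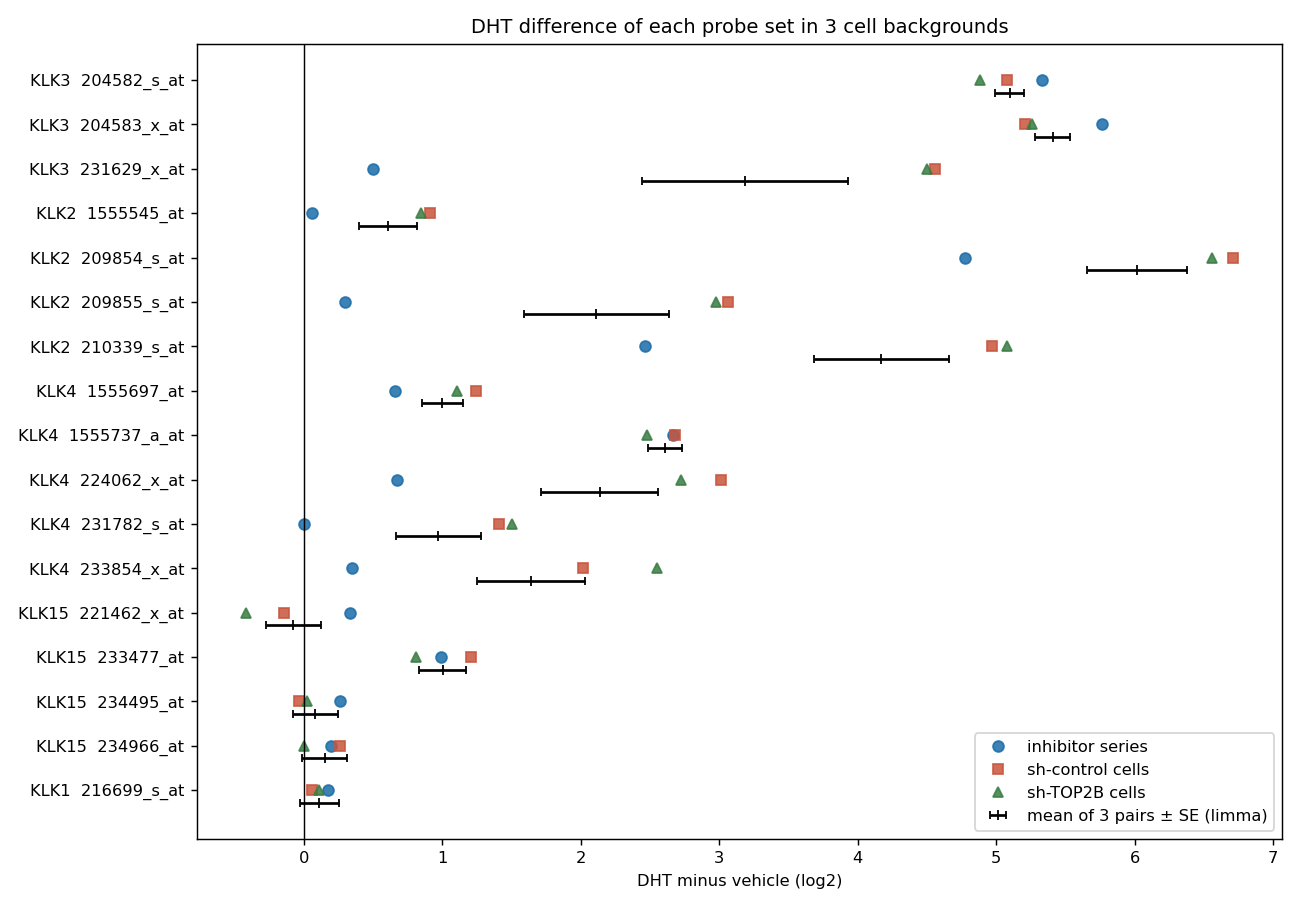
DHT minus vehicle (log2, horizontal axis) of the 17 probe sets (vertical axis) in the 3 backgrounds (inhibitor series, sh-control, sh-TOP2B), with the mean of the 3 pairs ± limma SE as a black bar. The sorted-cell pairs lie close together for each KLK3 and KLK2 probe set. The inhibitor-series pair lies apart for several probe sets, among them KLK3 231629_x_at (0.50 against 4.56 and 4.50), KLK2 209855_s_at (0.30 against 3.06 and 2.98) and KLK4 224062_x_at (0.67 against 3.01 and 2.72).

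The same gene gave different answers in the 2 series according to the probe set. Between sh-control DHT cells and steady-state cells, KLK3 204582_s_at differed by -0.01 and 204583_x_at by -0.67, but 231629_x_at by 4.56. For KLK4 the same difference was -2.11 for 1555697_at, 0.17 for 1555737_a_at, 1.72 for 224062_x_at, 1.41 for 231782_s_at and 1.40 for 233854_x_at. For KLK2 it was 0.53, 1.37 and -0.71 for 209854_s_at, 209855_s_at and 210339_s_at. Among deprived cells with vehicle, sh-control cells stood above the inhibitor series by 3.04 for KLK3 204582_s_at and, with a dim level set to its array median, by at least 2.10 for 204583_x_at. The KLK2 209854_s_at levels were dim in both. Sh-control cells stood below it by a difference of -1.92 for KLK4 1555697_at. These differences lie between series that also differ in the actin 3′ minus 5′ values above, whose part in them was not tested. Whether the 2 series were normalized together is not given in the sources used here, which limits any level set across them.

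Etoposide given before DHT left KLK3 between its vehicle and DHT levels. KLK3 204582_s_at was lower than with DHT alone by a difference of -3.34 ± 0.18 (10.1-fold, limma, adjusted p = 0.00612), and 204583_x_at by -3.24 ± 0.22 (9.44-fold, limma, adjusted p = 0.00936). Both still lay above the vehicle array, by 1.99 and (from a dim vehicle level) at least 2.42, a difference that was not tested. These 2 of 17 passed, both lower, against 0.146% of all probe sets lower. Neither call held without the sh-control pair (limma, adjusted p = 0.0640 and 0.0686) or without the sh-TOP2B pair (limma, adjusted p = 0.117 for both). Without the intensity trend they did not pass either (limma, adjusted p = 0.182 for both).

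No further member passed with etoposide. KLK2 209854_s_at differed by -2.66 ± 0.63 (limma, adjusted p = 0.238), with a 95% interval of -4.16 to -1.16. KLK2 210339_s_at differed by -2.24 (limma, adjusted p = 0.500). KLK4 1555737_a_at differed by -1.32 ± 0.21 (limma, adjusted p = 0.106) and stayed at least 0.81 above its dim vehicle level. KLK3 231629_x_at differed by -0.01, with an interval of -3.11 to 3.09 that leaves a large difference in either direction undetected.

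With merbarone before DHT, 2 KLK3 probe sets and 1 KLK2 probe set were lower than with DHT alone, and 1 of the 5 KLK4 probe sets was higher. KLK3 204582_s_at was lower than with DHT alone by a difference of -5.46 ± 0.18 (at least 42.3-fold, limma, adjusted p = 0.000506), to a dim level of 5.56 beside 5.68 with vehicle. KLK3 204583_x_at differed by -4.88 ± 0.22 (29.5-fold, limma, adjusted p = 0.000612) and lay at least 0.78 above its dim vehicle level. KLK2 209854_s_at differed by -4.95 ± 0.63 (at least 9.20-fold, limma, adjusted p = 0.00521), to a level as dim as with vehicle. KLK4 1555737_a_at instead rose by 1.42 ± 0.21 over DHT alone (2.67-fold, limma, adjusted p = 0.00917) and lay at least 3.55 above its dim vehicle level.

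So 3 of 17 passed lower and 1 higher, against 5.74% and 5.22% of all probe sets. The count of 1 of 17 higher is close to the share of all probe sets. KLK4 1555697_at was also higher than with DHT, by 0.64 ± 0.26, which did not pass (limma, adjusted p = 0.222), and 1.29 above vehicle. The other KLK4 probe sets differed by -0.05 (224062_x_at), -0.09 (231782_s_at) and -0.26 (233854_x_at), so the KLK4 probe sets differed from one another. KLK2 210339_s_at differed by -3.19 ± 0.84, at least 5.63-fold lower, and did not pass (limma, adjusted p = 0.0633). KLK1 differed by 0.13 (95% interval -0.45 to 0.71). HOXB13, a luminal marker, was lower with merbarone by -1.53 ± 0.16 (limma, adjusted p = 0.00258), while KRT8, KRT18 and FOLH1 did not pass; its part in the kallikrein values was not tested. Each inhibitor was set against the same DHT array, so the comparisons share that array.

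The compounds were compared directly at matched dose and pretreatment time. With etoposide 2 KLK3 probe sets were higher than with merbarone, and 1 of the 5 KLK4 probe sets was lower. With etoposide KLK3 204582_s_at was higher than with merbarone by 2.12 ± 0.18 (at least 4.18-fold, limma, adjusted p = 0.00196) and 204583_x_at by 1.64 ± 0.22 (3.12-fold, limma, adjusted p = 0.00694). KLK4 1555737_a_at differed by -2.74 ± 0.21 (limma, adjusted p = 0.00156), that is, it was 6.70-fold higher with merbarone. Against 4.62% of all probe sets higher and 5.61% lower, 2 and 1 of the 17 passed. The count of 1 of 17 lower is close to the share of all probe sets. KLK2 209854_s_at was at least 1.46-fold higher with etoposide, against a dim level with merbarone, and did not pass (limma, adjusted p = 0.0734), nor did KLK4 1555697_at, at -0.97 ± 0.26 (limma, adjusted p = 0.0677). Without the inhibitor-series pair 6 of the 17 passed this comparison, beside 14.8% of all probe sets (8068). Each compound had 1 array at 1 dose, and the test assumes that these arrays vary like those of the DHT pairs.

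**Figure D3:**
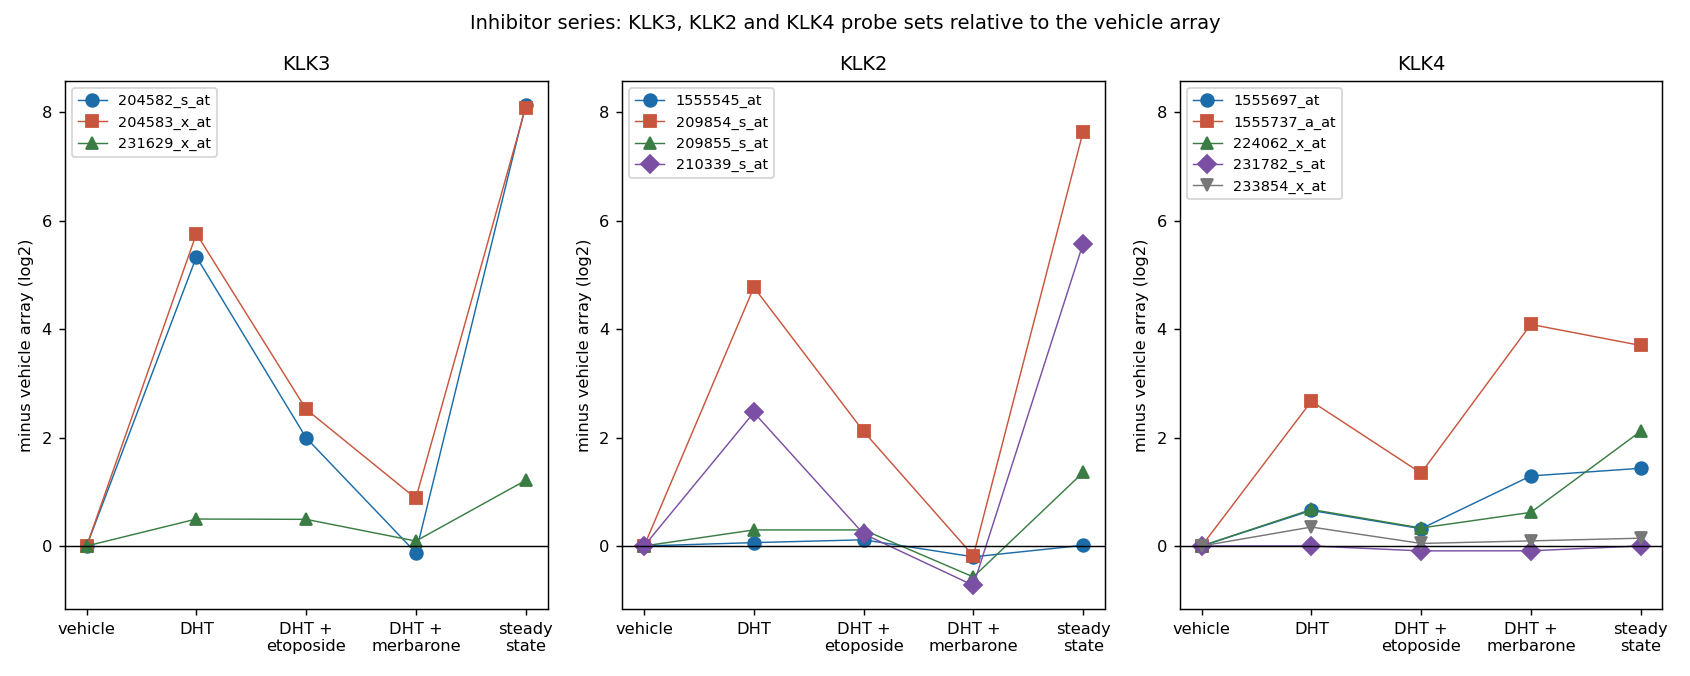
Difference from the vehicle array (log2, vertical axis) of each KLK3, KLK2 and KLK4 probe set on the 5 inhibitor-series arrays (horizontal axis), 1 point per array; lines only join points of 1 probe set. With merbarone KLK4 1555737_a_at is at least 3.55 above its dim vehicle level, and KLK3 204582_s_at (5.56, dim) is close to its vehicle level (5.68).

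Within the inhibitor series, some KLK3, KLK2, KLK4 and KLK15 probe sets were higher in full serum than in deprived cells. Against vehicle, KLK3 204582_s_at was higher by 8.13 ± 0.18 (281-fold, limma, adjusted p = 4.17e-05), the largest difference of all probe sets tested in this comparison. KLK3 204583_x_at was at least 253-fold higher (limma, adjusted p = 5.73e-05), and KLK2 209854_s_at at least 65.2-fold (limma, adjusted p = 0.00123). KLK2 210339_s_at was at least 47.3-fold higher (limma, adjusted p = 0.0105), KLK4 1555737_a_at at least 8.97-fold (limma, adjusted p = 0.000351) and KLK4 1555697_at 2.70-fold (limma, adjusted p = 0.0206). KLK15 233477_at was at least 1.87-fold higher (limma, adjusted p = 0.00946). These 7 of 17 passed, all higher, against 3.97% of all probe sets higher. Without the sh-TOP2B pair KLK4 1555697_at lost its call (limma, adjusted p = 0.0725). Without the intensity trend it did so too (limma, adjusted p = 0.0673), as did KLK2 210339_s_at (limma, adjusted p = 0.0581).

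Against DHT-treated cells, 4 of 17 were higher in steady state, with 3.35% of all probe sets higher. KLK3 204582_s_at was higher by 2.80 ± 0.18 (limma, adjusted p = 0.000635), 204583_x_at by 2.32 ± 0.22 (limma, adjusted p = 0.00229), KLK2 209854_s_at by 2.87 ± 0.63 (limma, adjusted p = 0.0451) and KLK4 1555737_a_at by 1.03 ± 0.21 (limma, adjusted p = 0.0367). The KLK2 call was lost without the sh-control pair (limma, adjusted p = 0.0690) and without the sh-TOP2B pair (limma, adjusted p = 0.113), and so was the KLK4 call (limma, adjusted p = 0.0789 and 0.115), which leaves 2. Over all alternatives run, the KLK2 call was lost in 4 of 10 and the KLK4 call in 5 of 9. The KLK4 losses include repeated quantile normalization (limma, adjusted p = 0.0561) and centring on ribosomal protein genes (0.70, limma, adjusted p = 0.103), and the KLK2 losses the fitted reference (limma, adjusted p = 0.0656). Steady-state cells also differ from the others in serum, washing and time in culture medium, which cannot be told apart from androgen supply. The luminal marker FOLH1 was lower in steady state than with DHT by a difference of -1.02 ± 0.22 (limma, adjusted p = 0.0418), and its part in these values was not tested.

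No change in the prostate kallikreins was detected in sh-TOP2B cells, where TOP2B itself read lower in both pairs but did not pass the test. With sh-TOP2B, 0 of 17 passed against sh-control over both treatments (limma, 1 of 17 at an unadjusted p under 0.05), against 0.414% of all probe sets. KLK3 204582_s_at differed by 0.06 (95% interval -0.25 to 0.37) and 204583_x_at by -0.04 (-0.41 to 0.33). KLK2 209854_s_at differed by 0.07 ± 0.44 (SE) and KLK4 1555737_a_at by -0.06 (-0.42 to 0.30). KLK15 233477_at was the member with an unadjusted p under 0.05: it was higher by at least 0.41 with vehicle, where the sh-control level was dim, and by 0.67 with DHT. The mean was at least 0.54 and did not pass (limma, adjusted p = 0.346).

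The DHT difference itself was also set between knockdown and control backgrounds. The sh-TOP2B minus sh-control change was -0.20 for KLK3 204582_s_at, 0.05 for 204583_x_at, -0.15 for KLK2 209854_s_at and -0.21 for KLK4 1555737_a_at. In the limma test of this change against both other backgrounds, 0 of 17 passed, with 0 at an unadjusted p under 0.05. Of all probe sets 0% passed and 1985 had an unadjusted p under 0.05. In that test the change was -0.32 (95% interval -0.90 to 0.25) for KLK3 204582_s_at and 0.82 (-1.19 to 2.83) for KLK2 209854_s_at. TOP2B itself differed by -0.66 ± 0.12 between the shRNA backgrounds (limma, adjusted p = 0.147), so its message was still well above the array median in sh-TOP2B cells.

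The rest of the cluster was mostly dim, and none of it passed a test. Of the other 11 kallikrein genes and pseudogene listed, 9 had a probe set of their own, 16 in all, with levels of 2.85 to 6.48, and 9 of the 16 were dim on every array. In the 8 comparisons 0 of these 16 passed (limma). Of all probe sets 0.0769% passed with DHT, and with merbarone, the comparison with most calls, 5.22% higher and 5.74% lower. With DHT 0 of 16 is thus close to the share of all probe sets. The DHT differences of the 16 ran from -0.32 to 0.74, against 0.11 for KLK1 and 6.01 for KLK2 209854_s_at. Of 11 genes that flank the cluster 9 were measured. Among these 0 passed with DHT, beside the same 0.0769% of all probe sets. ETFB, a subunit of the mitochondrial electron transfer flavoprotein, was higher in steady state than with vehicle by 1.00 ± 0.14 (limma, adjusted p = 0.00891), beside 3.97% of all probe sets higher.

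**Figure D4:**
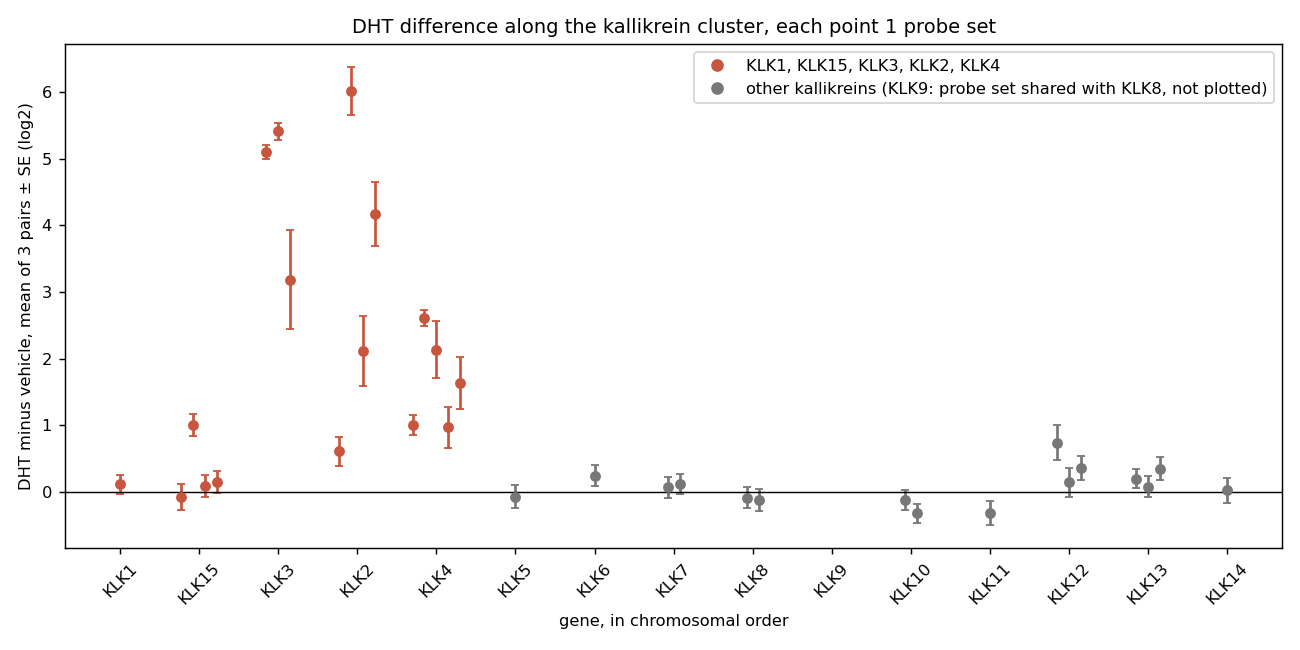
DHT minus vehicle (log2, vertical axis), mean of 3 pairs ± limma SE, for each probe set of the kallikrein genes in chromosomal order (horizontal axis), with the 5 prostate kallikreins in red. The other kallikreins lie between -0.32 and 0.74, below the KLK3, KLK2 and KLK4 probe sets that passed.

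Genes that act on kallikreins or are cut by them were counted from a list of 22, of which 19 were measured. With DHT 1 passed, higher, and 0 lower, beside 0.0769% of all probe sets higher: TMPRSS2, a membrane serine protease of luminal prostate cells, rose by 2.16 ± 0.19 (limma, adjusted p = 0.0326). With etoposide 0 passed. With merbarone 4 were lower and 2 higher than with DHT, beside 5.74% and 5.22% of all probe sets. TMPRSS2 was lower by a difference of -1.94 ± 0.33 (limma, adjusted p = 0.0141), ACP3, prostatic acid phosphatase, by -1.65 ± 0.36 (limma, adjusted p = 0.0338), ST14, the protease matriptase, by -1.22 ± 0.14 (limma, adjusted p = 0.00398) and fibronectin FN1 by -0.91 ± 0.12 (limma, adjusted p = 0.00546). IGFBP3, a growth factor carrier that KLK3 can cleave, was higher by 1.07 ± 0.16 (limma, adjusted p = 0.00839). The other one higher, SPINK1, was dim on all arrays. Although none passed with etoposide, 3 were lower and 1 higher than with DHT by at least 1, with dim levels set to the median. Of all 54613 probe sets, 511 were lower and 485 higher by at least 1 on the deposited levels, dim ones included. With DHT, etoposide and merbarone in turn, TMPRSS2 read 11.35, 10.02 and 9.41, and ACP3 9.54, 7.52 and 7.90. IGFBP3 read 10.04, 11.18 and 11.11, and SERPINA3 10.51, 9.32 and 10.76.

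SERPINA3, the antichymotrypsin that binds KLK3 in blood, read 6.03 in steady state but 10.58, 10.51, 9.32 and 10.76 with vehicle, DHT, etoposide and merbarone. In sorted cells it read 5.54 to 6.07 although those cells were deprived too. It was lower in steady state than with vehicle by a difference of -4.55 ± 0.27 (limma, adjusted p = 0.000370), as were IGFBP3 (-2.40) and FN1 (-1.67), with TMPRSS2 higher by 2.48. MSMB also passed as higher there, on dim levels. MSMB, a secreted protein of seminal plasma, read 6.93 and 7.02 with sh-control and 10.60 and 10.75 with sh-TOP2B. It rose by 3.70 ± 0.18 with sh-TOP2B (limma, adjusted p = 0.000864) and PLAUR, the urokinase receptor, by 2.20 ± 0.21 (limma, adjusted p = 0.0108), which with SPINK1 (dim) makes 3 higher and 0 lower, beside 0.414% of all probe sets in either direction.

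The courses most like those of KLK3 and KLK2 were sought among 689 genes outside the family, over the 9 arrays with each series centred on its own mean. For KLK3 204582_s_at the highest Pearson correlations were those of GLMP (0.986), ENDOD1 (0.978), HILPDA (0.974), TMPRSS2 (0.974) and GLUD1 (0.964). HILPDA is a lipid droplet protein and GLUD1 is glutamate dehydrogenase. For KLK2 209854_s_at they were those of TMPRSS2 (0.991), ENDOD1 (0.987), GLUD1 (0.980), GLMP (0.976) and HILPDA (0.971). Within the cluster, the correlation with KLK3 204582_s_at was 0.984 for KLK2 209854_s_at and 0.622 for KLK4 1555737_a_at. The KLK4 value was 0.424 over the 5 arrays of the inhibitor series and 0.999 over the 4 of the shRNA series. The points share arrays, series and the same few treatments, so these are descriptions of the course and carry no test.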

How the data were processed

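Members and lists were chosen with earlier results of these data known. The deposited series table holds 9 arrays with 1 log2 value per probe set; RMA is named per the submitters' processing notes, with a version not given in the sources used here. This method corrects background and equalises array distributions, which would take out any shift common to most genes. Probe sets were named from the platform annotation (41091 non-control probe sets with 1 symbol, 1801 with several, 11721 with none); 62 control probe sets were left out of tests.

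R 4.3.3 with limma 3.58.1 fitted the other 54613 on the deposited log2 values, with terms for 3 backgrounds, DHT and each lone array (2 residual and 4.55 prior degrees of freedom, intensity trend). A second fit tested the change of the DHT response with sh-TOP2B (1 residual and 4.19 prior). Lone arrays were compared with their reference array, and are assumed to vary like the pairs. Tests were two-sided, Benjamini-Hochberg adjusted over all 54613, with a threshold of 0.05, and the script was tested on simulated data. The spread used is how far the DHT differences of the 3 backgrounds disagree, drawn by the prior towards that of other probe sets. Nothing says that arrays came from separate cultures, so the p-values cover only that disagreement among these arrays. It may be technical or lie between the backgrounds, which cannot be told apart, and the number of arrays limits the precision.

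Every member probe set is described. Likeness was computed for the leading KLK3 and KLK2 probe sets, among genes with a mean above the 40th percentile and a range of at least 1 in both series, taking the 5 highest. Of the lists, genes past a test are named. Promoter windows came from RefSeq (GRCh38.p14), matched by symbol for 4 of 5 members, and were aligned with Biopython 1.88. Alternatives changed the filter on dim probe sets, the trend, robust eBayes, normalization, centring, probe sets per gene, the pairs and the reference level. Some genes are not reported here.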

Additional observations from a re-analysis of the deposited data

Results flagged for a closer look

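KLK4 1555737_a_at went opposite ways with the inhibitors, relative to DHT alone: it differed by -1.32 ± 0.21 with etoposide, which did not pass (limma, adjusted p = 0.106), and by 1.42 ± 0.21 with merbarone, which did (limma, adjusted p = 0.00917). The test of the difference between the compounds gave -2.74 ± 0.21 for etoposide minus merbarone (limma, adjusted p = 0.00156), and it kept its call under all 9 alternatives run for it, between -2.75 and -2.54, with a largest adjusted p of 0.0222. Of the 17 members this was the only 1 lower with etoposide than with merbarone, beside 5.61% of all probe sets. It was also the only 1 higher with merbarone than with DHT alone, beside 5.22%. Both counts are close to those shares.

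KLK15 221462_x_at differed between DHT and vehicle by 0.33 in the inhibitor series and by -0.15 and -0.42 in the sh-control and sh-TOP2B pairs. The opposite signs drew attention here. The difference between the series was not tested, and the probe set was dim on all 6 of these arrays.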

How the results depend on the processing

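Of 227 recomputed values of called member probe sets, 204 kept their direction and call, 23 lost the call and 0 reversed. All merbarone and etoposide-against-merbarone calls of members were kept under every alternative run for them, and KLK4 1555737_a_at with merbarone ranged from 1.25 to 1.45. With 1 probe set per gene, which leaves 5 members, 2 passed with DHT, 1 with etoposide, 2 with merbarone, 1 between the compounds, 4 for steady state against vehicle and 2 against DHT. Without the intensity trend 0 passed with etoposide (3998 of all probe sets at an unadjusted p under 0.05) and 2 for steady state against DHT. Between the compounds 5 of the 14 members left passed without probe sets below the 40th percentile, beside 6719 of all probe sets left. Without those below the 60th percentile 5 of the 10 members left passed, beside 7192. Leaving out 1 pair gave 2 to 11 members with DHT, 0 (either pair) with etoposide, 4 with merbarone, 3 to 6 between the compounds, 6 to 7 for steady state against vehicle and 2 against DHT. The sh-TOP2B and interaction counts stayed at 0 in the alternatives run. Over all probe sets, the DHT count of 42 became 103 and 150 with the filters, 4 without the trend, 20 with 1 probe set per gene, 2900 without the inhibitor-series pair and 3 without the sh-control pair, as without the sh-TOP2B pair. The etoposide count of 109 became 226, 377, 0 and 56 with the filters, without the trend and with 1 probe set per gene, 0 without the sh-control or the sh-TOP2B pair, and 212 with the fitted reference. Without the trend, with 1 probe set per gene and without the sh-TOP2B pair, the merbarone count of 5985 became 2636, 3190 and 2696, the count of 5589 between the compounds 2054, 3265 and 2181, the steady-state count against vehicle (4566) 1692, 2787 and 2048, and that against DHT (3851) 1145, 2422 and 1375. The knockdown count of 226 became 124 without the trend. Centring on ribosomal protein genes shifted the median of all probe sets by -0.17 for merbarone, 0.21 between the compounds, -0.29 for steady state against vehicle and -0.33 against DHT. The share of calls that were higher moved from 47.7% to 31.6%, from 45.1% to 66.2%, from 47.5% to 20.1% and from 47.5% to 16.4% in that order. The comparisons of inhibitor and steady-state arrays with vehicle or DHT could not be formed without the inhibitor-series pair, nor the knockdown comparison without a sorted-cell pair, and the interaction had no residual degrees of freedom without any pair. With 1 array per group, signal near the array median limits KLK15 and the vehicle levels of KLK2.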

Other observations

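KLK4 was not part of the rule for the courses most alike and was added after its values were seen. Over the 9 arrays, with each series centred, the genes closest to its leading probe set 1555697_at were USP43 (Pearson correlation 0.974), TWIST1 (0.972), PAK1IP1 (0.966), GPR158 (0.955) and AFF3 (0.950). GPR158 read 8.89 with DHT, 8.17 with etoposide and 9.75 with merbarone before DHT, and PAK1IP1 read 7.62, 7.11 and 8.86. Both, like KLK4 1555697_at, were lower with etoposide and higher with merbarone than with DHT alone. These genes were picked for that likeness, so their levels are a description.

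Some member probe sets held exactly equal deposited values on several arrays. KLK4 231782_s_at read 6.07 on 4 arrays, KLK15 234966_at 4.83 on 5, KLK3 231629_x_at 9.13 on 3 and KLK2 209855_s_at 5.93 on 2. The first includes steady state, vehicle and DHT in the inhibitor series, where the DHT difference is therefore 0.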
